A study of Mus musculus with 8 samples.

Results

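Lactate transport and lactate dehydrogenase genes were followed in fibroblastic reticular cells (FRC), the stromal cells that build the network of the lymph node. The group comprised 8 genes, picked by symbol from the 55367 genes of the count table: the monocarboxylate transporters Slc16a1 (Mct1), Slc16a3 (Mct4) and Slc16a7 (Mct2), their chaperones Bsg and Emb, and the lactate dehydrogenases Ldha, Ldhb and Ldhd. RNA was sequenced from a single mouse FRC line, raised from lymph nodes of p53ER/ER mice on the C57BL/6 background. The line was exposed for 4 days to 4 media, with 2 libraries each. TCM was RPMI conditioned by B16.F10 melanoma cells, and CCM was RPMI conditioned by the FRCs themselves. The LA condition was unconditioned RPMI with lactic acid at 15 mmol/L, and vehicle was the same medium with an equal amount of water. All media carried the same low serum supplement and antibiotics. CCM is thus the control of TCM, and vehicle that of LA. Total counts ranged from 8232889 to 14107964 per library. The 2 libraries of a condition are numbered replicates of this 1 line, so the spread between them does not cover differences between lines or animals.

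Lactate crosses the plasma membrane together with a proton through monocarboxylate transporters. Slc16a1 has a high affinity for its substrates and often serves uptake, whereas Slc16a3 is typical of cells that export lactate. Both need a single-span membrane protein to reach the surface, which is basigin (Bsg) for either transporter, while embigin (Emb) is the usual partner of Slc16a7. Inside the cell Ldha and Ldhb encode the subunits of the tetrameric enzyme that interconverts pyruvate and lactate, with Ldha-rich forms usual in glycolytic cells and Ldhb-rich forms in oxidative ones. Ldhd is a mitochondrial enzyme that acts on D-lactate.

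Of the 8 genes, 6 reached 10 counts or more in 3 or more libraries and were tested, among 12137 genes in all. The other two were barely detected or not detected. Slc16a7 had 0 counts in every library, where 3 counts, taken as the limit that a count of 0 allows, equal 0.211 to 0.354 CPM, the counts scaled to library size. Ldhd had at most 4 counts in a library, and its summed counts were 1 in vehicle, 7 in CCM, 2 in LA and 6 in TCM. Its exons share 2246 bases with Znrf1 on the opposite strand, and whether the counting used strand is not given in the sources used here, so even these few reads may belong to either gene. These limits cover counting error only.

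The upstream sequence of 4 of the genes is shown because Ldha, Slc16a3 and Ldhb were higher in TCM, whereas Slc16a1, a transporter of the same family as Slc16a3, was not called. Bsg was also higher in TCM but had no entry among the RefSeq starts used. Each sequence is the 250 bases before a RefSeq transcription start on GRCm38.p6, read 5′ to 3′ along the gene. Capitals mark ACGTG and GCGTG on either strand (CACGT and CACGC when read on the other), the core letters bound by hypoxia-inducible factors. Where ACGTG is preceded by C, the letters also form CACGTG, the E-box, and the 2 motifs overlap.
Ldha: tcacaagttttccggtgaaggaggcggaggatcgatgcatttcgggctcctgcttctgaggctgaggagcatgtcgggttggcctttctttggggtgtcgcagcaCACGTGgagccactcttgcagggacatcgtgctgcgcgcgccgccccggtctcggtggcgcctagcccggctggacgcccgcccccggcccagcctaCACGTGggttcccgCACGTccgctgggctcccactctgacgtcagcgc
Slc16a3: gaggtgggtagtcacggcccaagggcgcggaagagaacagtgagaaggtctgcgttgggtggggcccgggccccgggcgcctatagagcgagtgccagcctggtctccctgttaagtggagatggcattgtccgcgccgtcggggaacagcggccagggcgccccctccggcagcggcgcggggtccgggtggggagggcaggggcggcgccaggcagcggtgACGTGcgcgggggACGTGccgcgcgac
Ldhb: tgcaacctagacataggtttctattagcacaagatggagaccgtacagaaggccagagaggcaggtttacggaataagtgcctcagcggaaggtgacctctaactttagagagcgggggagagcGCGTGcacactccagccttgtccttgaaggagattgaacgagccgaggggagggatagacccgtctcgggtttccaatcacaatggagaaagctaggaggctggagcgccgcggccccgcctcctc
Slc16a1: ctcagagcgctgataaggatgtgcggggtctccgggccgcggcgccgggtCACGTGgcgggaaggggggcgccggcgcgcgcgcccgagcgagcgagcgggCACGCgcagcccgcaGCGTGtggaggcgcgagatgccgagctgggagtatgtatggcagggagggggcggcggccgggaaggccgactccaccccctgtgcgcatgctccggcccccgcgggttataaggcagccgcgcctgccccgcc

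The Ldha sequence lies at chr7:46845554-46845803 on the plus strand, inside the annotated gene but in none of its exons, since 1 longer transcript starts further upstream. It holds marked letters at 3 places, beginning 145, 48 and 34 bases before the start, and the first 2 of them are CACGTG. RefSeq lists a second Ldha start, and the 250 bases before it hold the letters at 1 place. The Slc16a3 sequence is at chr11:120948817-120949066 on the plus strand, and its last 14 bases lie in a first exon of another transcript of the gene. Its 2 places begin 27 and 14 bases before the start. The Ldhb sequence, at chr6:142507958-142508207 on the minus strand, lies outside its annotated gene and in no annotated exon. It has 1 place, 126 bases before the start. The Slc16a1 sequence, at chr3:104638414-104638663 on the plus strand, likewise lies outside its annotated gene and in no annotated exon. It has 3 places, which begin 200, 149 and 134 bases before the start, the first being CACGTG. Such letters are common: ACGTG or GCGTG occurred in 38.6% of 32851 windows of the same length, ACGTG in 16.6% and CACGTG in 6.02%. A match of letters is a description of the sequence, and whether any place is bound or bears on the fold changes was not tested. Of the 8 genes, 6 had an entry in this RefSeq table, and of their 7 windows, 2 of them for Ldha, 6 held the letters, Emb being the exception. The Emb window lies inside its annotated gene, and all 250 of its bases are in annotated exons.

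Expressed per length of merged exons, the tested genes spanned about 3 orders of magnitude. Averaged over the 4 conditions, Bsg stood highest at 422.4 CPM per kb, followed by Ldha at 218 CPM per kb. Ldhb (9.76 CPM per kb) and Slc16a1 (8.29 CPM per kb) lay close together far below, with Emb at 2.13 CPM per kb and Slc16a3 at 0.413 CPM per kb. Per length, Ldhb and Slc16a1 changed places between conditions. Ldhb was at 7.20 ± 0.274 CPM per kb and Slc16a1 at 7.42 ± 0.0145 in vehicle, against 13.3 ± 1.26 and 9.46 ± 0.450 in TCM (SD, n = 2 each). The swap depended on the division by exon length. In CPM, Slc16a1 stood above Ldhb in vehicle (32.8 against 11.3) and in TCM (41.8 against 20.8). In transcript level the chaperone Bsg thus stood far above either transporter that it escorts, and Ldha far above Ldhb.

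**Figure D1:**
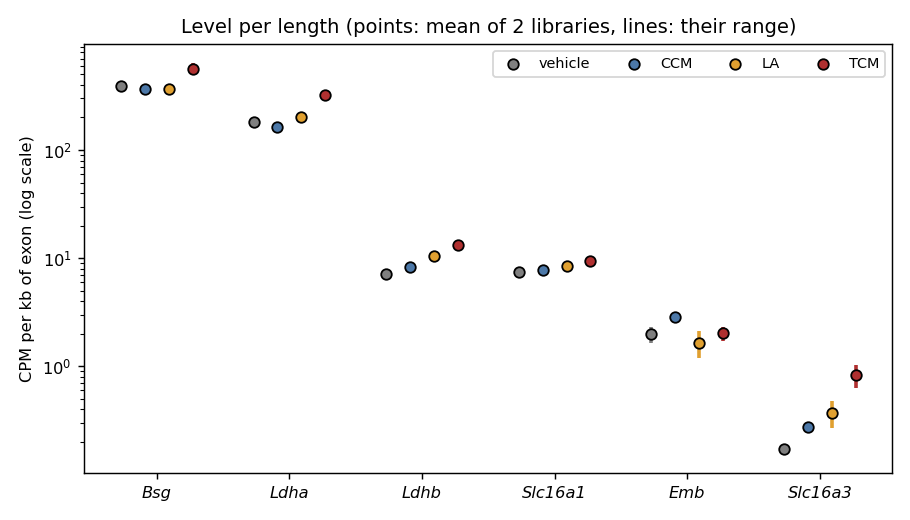
CPM per kb of merged exon on a log scale for the 6 tested genes in vehicle, CCM, LA and TCM, with points for the mean of 2 libraries and lines for their range. Bsg and Ldha stand highest in every condition and Slc16a3 lowest, with its highest level, 0.829 CPM per kb, in TCM.

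TCM was compared with CCM to ask how tumor-conditioned medium changes these genes beyond conditioning by FRCs themselves. Ldha, Slc16a3, Ldhb and Bsg were higher in TCM, and neither Slc16a1 nor Emb passed the test. Calls needed an adjusted P value below 0.05 together with a log2 FC past 0.39 in either direction (edgeR quasi-likelihood test, Benjamini-Hochberg adjustment over the 12137 genes). In TCM vs CCM, 4 of the 6 tested genes were called higher and 0 lower, whereas 8.83% of all tested genes were called higher and 10.2% lower. The median log2 FC of the 6 was 0.66, against 0.00032 over all tested genes. Libraries did not overlap for 5 higher and 1 lower of the 6, against 27.8% and 30.5% of all tested genes.

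Ldha encodes the subunit that prevails in glycolytic tissue (chr7:46841475-46855627, plus strand). Its level was 629 and 585 CPM in the vehicle libraries, 528 and 555 CPM in CCM, 688 and 662 CPM in LA and 1137 and 989 CPM in TCM. Both TCM libraries thus stood well above the other 6. The log2 FC in TCM vs CCM was 0.97 (SE 0.107, edgeR adjusted P value = 0.000119), a 1.96-fold difference, and its adjusted P value stayed below 0.05 in each of 16 alternative fits.

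Ldhb encodes the other subunit of the enzyme (chr6:142490249-142507957, minus strand). It was measured at 11.6 and 11.0 CPM in vehicle, 12.4 and 13.4 CPM in CCM, 15.7 and 17.0 CPM in LA and 22.2 and 19.4 CPM in TCM. The 4 conditions did not overlap, and they formed a staircase from vehicle through CCM and LA to TCM. How many of all tested genes had 4 conditions without overlap was not counted. The log2 FC in TCM vs CCM was 0.69 (SE 0.136, edgeR adjusted P value = 0.00435). No step between neighbors of the staircase was called, with log2 FC of 0.19 for CCM vs vehicle, 0.35 for LA vs CCM and 0.34 for TCM vs LA (adjusted P values of 0.673, 0.386 and 0.101 from edgeR). TCM vs vehicle, across all steps, was called at a log2 FC of 0.88 (adjusted P value = 0.00141).

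Slc16a3 encodes the transporter linked with lactate export (chr11:120948480-120960868, plus strand). It was a low-count gene, with 9 and 9 counts in vehicle, 18 and 15 in CCM, 12 and 36 in LA and 32 and 50 in TCM. These equal 1.00 and 0.831 CPM in vehicle, 1.52 and 1.43 CPM in CCM, 1.42 and 2.54 CPM in LA, and 3.37 and 5.45 CPM in TCM. The TCM libraries were above all others, while the LA libraries spread around the level in CCM. The log2 FC in TCM vs CCM was 1.57 (SE 0.350, edgeR adjusted P value = 0.00901), the largest fold difference among the 6 genes but also the one with the widest interval, from 0.80 to 2.34. From vehicle to TCM the log2 FC was 2.26 (SE 0.395, adjusted P value = 0.00257), and it was called in each of 15 alternative fits.

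Bsg, the chaperone that carries Slc16a1 and Slc16a3 to the membrane (chr10:79704491-79711969, plus strand), was at 717 and 706 CPM in vehicle, 656 and 673 CPM in CCM, 654 and 681 CPM in LA and 1146 and 898 CPM in TCM. Vehicle, CCM and LA lay within a narrow band, and only the TCM libraries rose out of it, although they differed from each other more than the other pairs did. The log2 FC in TCM vs CCM was 0.62 (SE 0.120, edgeR adjusted P value = 0.00412). It was 0.43 without TCM replicate 1 and 0.79 without TCM replicate 2, and called in both.

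Slc16a1, the transporter often used for uptake (chr3:104638668-104658462, plus strand), was at 32.8 and 32.9 CPM in vehicle, 33.0 and 36.1 CPM in CCM, 36.5 and 38.7 CPM in LA and 43.3 and 40.4 CPM in TCM. The means followed the same order as those of Ldhb, with smaller steps. The log2 FC in TCM vs CCM was 0.28 (SE 0.106, 95% confidence interval 0.045 to 0.51, edgeR adjusted P value = 0.0873), an interval that reached past the fold threshold. In TCM vs vehicle its log2 FC was 0.35 with an adjusted P value of 0.0419, which passed the P value but not the fold threshold.

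Emb, the partner of the undetected Slc16a7 (chr13:117208536-117274415, plus strand), went another way, with 11.4 and 15.9 CPM in vehicle, 20.6 and 19.2 CPM in CCM, 8.27 and 14.6 CPM in LA and 16 and 11.8 CPM in TCM. CCM was the highest condition and the other 3 overlapped. Its log2 FC in TCM vs CCM was −0.52 (SE 0.242, edgeR adjusted P value = 0.158), with an interval from −1.05 to 0.017. Without the filter on low counts it was called lower, at a log2 FC of −0.51 (adjusted P value = 0.0179 from edgeR). Emb shares 686 exon bases with Gm17509 on the opposite strand, so its reads carry the same uncertainty as those of Ldhd.

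**Figure D2:**
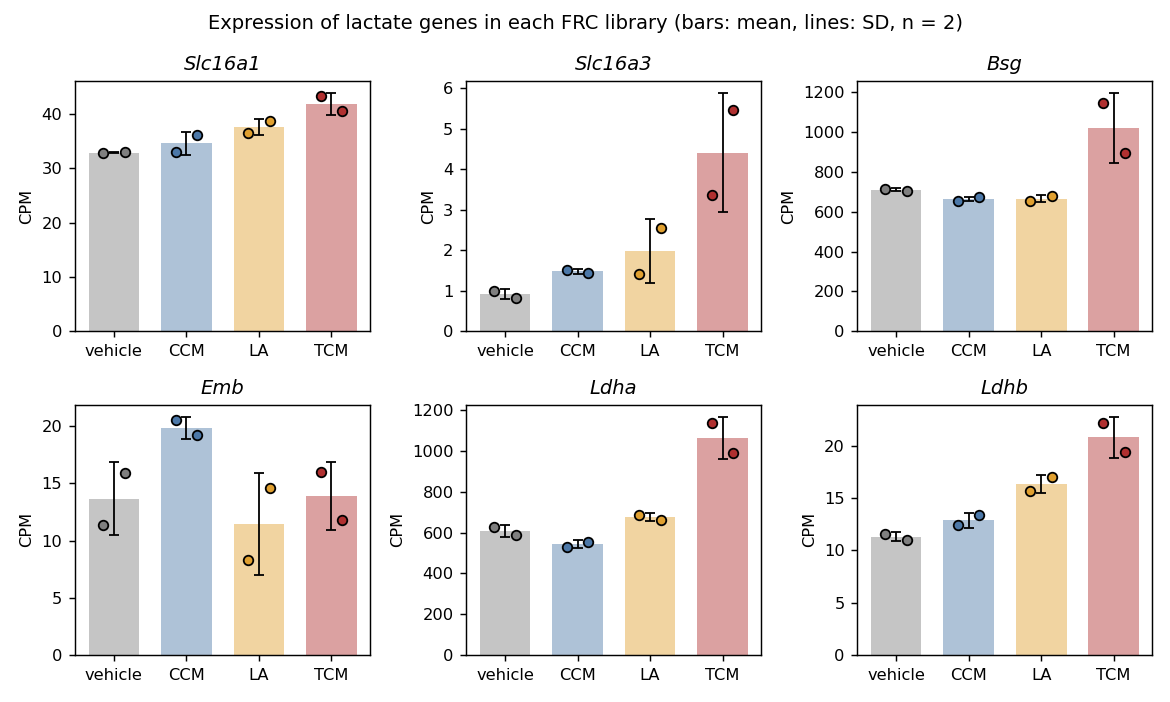
CPM of the 6 tested genes in each library, with bars for the mean, lines for the SD and a point for each of the 2 libraries per condition, and axes that start at 0. For Ldha, Ldhb, Slc16a3, Slc16a1 and Bsg both TCM libraries lie above all other libraries, and for Emb the CCM libraries do. In TCM vs CCM alone, 27.8% of all tested genes were higher and 30.5% lower without overlap of libraries. The share of all tested genes with a condition above all other libraries was not counted.

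Some calls in TCM vs CCM were lost when a CCM library was left out, which leaves a single library in that condition. Without CCM replicate 1, Bsg, Ldhb and Slc16a3 were lost, with log2 FC of 0.60, 0.64 and 1.61. Without CCM replicate 2, Slc16a3 was lost. Fewer of all tested genes were called in both fits as well, and whether the losses were particular to this group was not tested. Without TMM scaling the median of all genes shifted to −0.14 in TCM vs CCM, and the 4 genes were still called. Fewer cells with a transcript and less transcript per cell cannot be told apart in these bulk libraries.

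LA was compared with vehicle to ask what lactic acid alone does to the genes that move and convert it. None of the 6 tested genes was called: 0 in either direction by edgeR and 0 by DESeq2, with 2.55% of all tested genes called and 2 of the 6 at an unadjusted P value under 0.05. The median log2 FC of the 6 was 0.18, against −0.00035 over all genes. Those 2 were Ldhb, with a log2 FC of 0.54 (SE 0.141, edgeR adjusted P value = 0.0777), and Slc16a3, with 1.18 (SE 0.437, adjusted P value = 0.229). In LA vs vehicle libraries did not overlap for 4 higher and 1 lower of the 6, against 23.7% and 24.2% of all tested genes.

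Ldhb was close to the threshold. Both LA libraries (15.7 and 17.0 CPM) were above both vehicle libraries (11.6 and 11.0 CPM), and its adjusted P value (edgeR or DESeq2) ranged from 0.0285 to 0.377 over 16 alternative fits, 4 of which called it. Those 4 were the fits without TCM replicate 1, without TCM replicate 2, without the filter on low counts and with crossed replicate numbers. For Slc16a3 the value rested on LA replicate 2: the log2 FC was 0.63 without it and 1.47 without LA replicate 1. Ldha moved little, with a log2 FC of 0.15 and an interval from −0.080 to 0.39, so any effect of LA on Ldha of the size seen with TCM lay outside that interval. The other log2 FC were 0.20 for Slc16a1 (interval −0.037 to 0.43), −0.093 for Bsg (−0.36 to 0.17) and −0.22 for Emb (−0.77 to 0.34).

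The difference between both effects, TCM vs CCM minus LA vs vehicle, was tested as an interaction. Ldha and Bsg were called higher, 2 of the 6 tested genes, with 4.45% of all tested genes called higher. The interaction log2 FC was 0.82 for Ldha (SE 0.150, edgeR adjusted P value = 0.00515) and 0.71 for Bsg (SE 0.170, adjusted P value = 0.0212). The call of Ldha held in each of 15 alternative fits, with adjusted P values (edgeR or DESeq2) up to 0.0474. That of Bsg was lost without vehicle replicate 1 or 2, CCM replicate 1 or 2, or LA replicate 1 or 2, with adjusted P values from 0.0669 to 0.107, and without TMM scaling (0.0505). For Ldhb the interaction was 0.15 with an interval from −0.28 to 0.59, and for Slc16a3 it was 0.39 with an interval from −0.91 to 1.69. For these genes the data do not show whether the effects of TCM and LA differ.

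**Figure D3:**
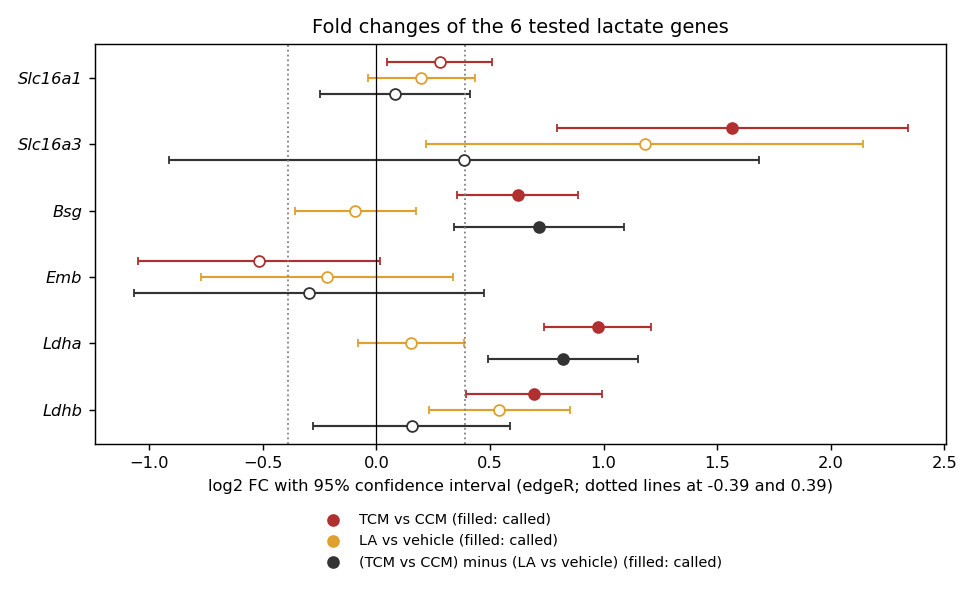
Log2 FC with 95% confidence intervals of the 6 tested genes in TCM vs CCM, LA vs vehicle and the difference between them, with filled points for called genes and dotted lines at the fold threshold of 0.39. Ldha, Ldhb, Slc16a3 and Bsg are filled in TCM vs CCM, only Ldha and Bsg in the difference, and none in LA vs vehicle.

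The remaining contrasts share libraries with those above and are given side by side. In TCM vs vehicle, 4 of the 6 genes were called higher, with 8.58% of all tested genes called higher: Slc16a3 (log2 FC 2.26), Ldhb (0.88), Ldha (0.81) and Bsg (0.52). The call of Bsg in TCM vs vehicle was lost without vehicle replicate 1 or 2, at edgeR adjusted P values of 0.0729 and 0.0857, and without TCM replicate 1, where its log2 FC of 0.34 fell short of the threshold. In TCM vs LA, 3 were called higher, with 8.34% of all tested genes called higher: Slc16a3 (1.08), Ldha (0.66) and Bsg (0.62). The call of Slc16a3 in TCM vs LA was narrow, at an edgeR adjusted P value of 0.0443, and held in 5 of 15 alternative fits; it was lost on leaving out any vehicle, CCM or LA library or TCM replicate 2, with adjusted P values up to 0.197. In CCM vs vehicle, 0 of the 6 were called by edgeR and by DESeq2, with 1.30% of all tested genes called and 1 of the 6, Emb, at an unadjusted P value under 0.05 (log2 FC 0.53). In LA vs CCM, 0 of the 6 were called by either tool, with 0.626% of all tested genes called and 3 of the 6 at an unadjusted P value under 0.05: Emb (log2 FC −0.75), Ldha (0.32) and Ldhb (0.35).

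The balance within each pair of related genes was described per length. Ldhb made up 3.74% and 3.81% of Ldha plus Ldhb in the vehicle libraries, 4.71% and 4.83% in CCM, 4.59% and 5.13% in LA and 3.95% and 3.97% in TCM. The Ldha share was therefore 1.09 percentage points lower in LA than in vehicle (95.1 ± 0.383% against 96.2 ± 0.0450%, SD, n = 2 each) and 0.808 percentage points higher in TCM than in CCM (96.0 ± 0.0124% against 95.2 ± 0.0832%). Neither pair of conditions overlapped, although 2 libraries against 2 cannot give a P value below 0.333 in an exact 2-sided permutation test, which was the value found. The ratio of the 2 transcripts in TCM was thus closer to that in vehicle than to that in CCM or LA.

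Slc16a3 made up 2.48% and 2.06% of Slc16a1 plus Slc16a3 in vehicle, 3.68% and 3.20% in CCM, 3.13% and 5.18% in LA and 6.09% and 10.1% in TCM. Slc16a1 therefore remained the main transcript of this pair in all 8 libraries, with a share of 89.9% at the lowest. Its share was 4.65 percentage points lower in TCM than in CCM (91.9 ± 2.83% against 96.6 ± 0.342%, SD, n = 2 each) and 1.88 percentage points lower in LA than in vehicle (95.8 ± 1.45% against 97.7 ± 0.300%). The exact 2-sided permutation test again gave its minimum of 0.333 for both. The difference between TCM and CCM was −6.65 percentage points without TCM replicate 1 and −2.65 without TCM replicate 2, and that between LA and vehicle was −2.90 without LA replicate 1 and −0.858 without LA replicate 2.

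**Figure D4:**
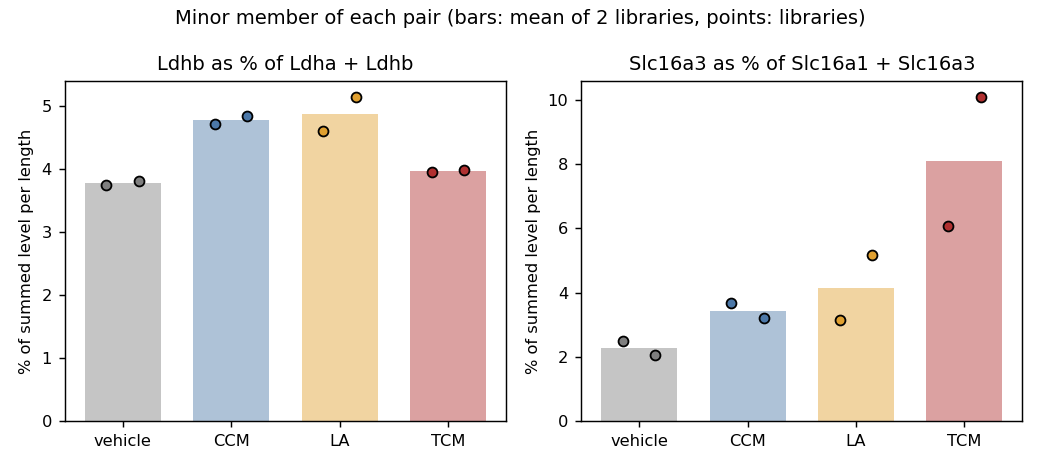
Share of the minor gene in each pair, as a percentage of the summed level per length, with bars for the mean of 2 libraries and a point for each library. Ldhb takes from 3.74% to 5.13% and is lowest in vehicle and TCM, and Slc16a3 takes from 2.06% to 10.1% and is highest in TCM.

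Neighboring steps of the pathway were read from gene lists. For these lists too, the shares over all tested genes were 8.83% called higher and 10.2% lower in TCM vs CCM and 2.55% called in LA vs vehicle, with median log2 FC of 0.00032 and −0.00035. Of the glycolysis genes, which supply the pyruvate that Ldha reduces, 10 of 15 tested were called higher in TCM vs CCM and 0 lower, with a median log2 FC of 0.62. The smallest P values belonged to the phosphofructokinase Pfkl (log2 FC 1.38), the aldolase Aldoa (1.29) and the kinase Pgk1 (1.18), with edgeR adjusted P values of 1.74e-05, 2.36e-05 and 6.76e-05. In LA vs vehicle 0 of the 15 were called by edgeR or DESeq2, with 2 at an unadjusted P value under 0.05 and a median of 0.021. Among 16 genes that decide the fate of pyruvate in the mitochondrion, 4 were called higher and 1 lower in TCM vs CCM. Pdk1 (log2 FC 1.51) and Pdk4 (1.54), kinases that switch pyruvate dehydrogenase off, and Pdp1 (0.85), a phosphatase that switches it on, had the smallest P values. The other two were the carboxylase Pcx (0.46) and the transaminase Gpt2 (−0.53). Of these 5 calls 3 were made without CCM replicate 1, without CCM replicate 2 or without TCM replicate 1. In LA vs vehicle only Pdp1 was called among them, and it was lower (log2 FC −0.71, edgeR adjusted P value = 0.0408), a call that was lost without vehicle replicate 1 or any CCM or LA library.

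The shuttles that carry the electrons of cytosolic NADH into the mitochondrion, an alternative to lactate formation, had 8 tested genes. By edgeR or DESeq2, 0 of the 8 were called in TCM vs CCM and in LA vs vehicle. At an unadjusted P value under 0.05 were 3 and 1, and the median log2 FC were 0.16 and 0.064. Gpd2 fell just under the fold threshold in TCM vs CCM, at a log2 FC of 0.388 (adjusted P value = 0.0488 from edgeR). Some shuttle genes were called in TCM vs CCM when a TCM library was left out, which leaves a single library in that condition. Of 13 further carriers of the Slc16 and Slc5 families 3 were tested, and 0 were called in either comparison by edgeR or DESeq2, with 0 and 1 at an unadjusted P value under 0.05. Slc16a4 had log2 FC of 0.20 in TCM vs CCM and −0.22 in LA vs vehicle, Slc16a6 had −0.50 and −0.44, and Slc16a9, a carnitine carrier, had 0.14 and −0.36. Slc16a9 and Slc16a6 were however lower than in vehicle in TCM (log2 FC −0.78 and −1.89, adjusted P values of 0.00693 and 0.00370 from edgeR), and Slc16a9 was also lower in CCM (−0.92, adjusted P value = 0.0287). The neuroplastin gene Nptn, a relative of Bsg that can escort transporters, had a log2 FC of 0.31 in TCM vs CCM (adjusted P value = 0.0429 from edgeR), under the fold threshold. Its levels were 358 and 361 CPM in CCM and 446 and 444 CPM in TCM. In TCM vs LA, Nptn was called higher at a log2 FC of 0.40, with 8.34% of all tested genes called higher. Of the 3 tested carriers above, 1 was called lower in TCM vs LA. Glo1 (0.11), Hagh (0.37) and Uevld (0.40), which handle methylglyoxal or resemble lactate dehydrogenase, were not called in TCM vs CCM by edgeR or DESeq2, with 1 of the 3 at an unadjusted P value under 0.05, nor in LA vs vehicle, with 0. Hcar1, the lactate receptor, had at most 0.18 CPM.

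**Figure D5:**
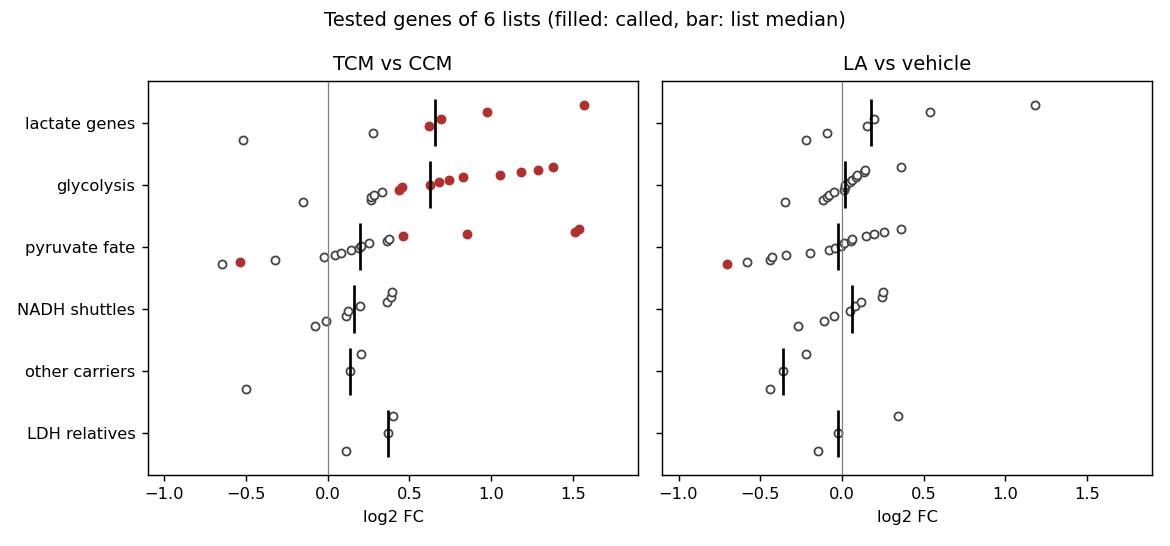
Log2 FC of the tested genes of 6 lists in TCM vs CCM (left) and LA vs vehicle (right), with filled points for called genes and a bar at each list's median. In TCM vs CCM the medians of the lactate genes (0.66) and of glycolysis (0.62) are the largest of the 6 lists. The LDH relatives, with 3 tested genes, follow at 0.37. Pyruvate fate (0.20), NADH shuttles (0.16) and other carriers (0.14) have smaller positive medians. In LA vs vehicle the only filled point is Pdp1.

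For each gene called in TCM vs CCM, the genes most alike across the 8 libraries were found by Pearson's correlation of log2 CPM. Ldha was most like Klf6 (r = 0.994), Tpi1 (0.994) and Aldoa (0.991), the last 2 being glycolytic enzymes. Ldhb was most like Spop (0.991), Neu3 (0.984) and Slc16a1 (0.982), so that Slc16a1, which followed the same order of conditions, was among the 3 closest of 12136 genes. Bsg was closest to Anxa3 (0.992), Azin2 (0.988) and Aga (0.988), and Slc16a3 to Zfp369 (0.979), Parvb (0.975) and Sp100 (0.974). The 8 points are 4 conditions with 2 libraries each, so such values mostly describe a shared order of conditions.

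The identity of the cells was checked on marker lists. The FRC genes Pdpn (114 to 187 CPM) and Vcam1 (136 to 215 CPM) were present in all libraries, whereas the lymph node chemokine Ccl21a was at 0 and Ccl19 at or near 0, and Thy1 reached at most 1.74 CPM. The leukocyte gene Ptprc was at 0. The 5 leukocyte genes summed to at most 0.191 CPM and the 4 endothelial genes to at most 1.24 CPM. The 6 melanoma genes summed to between 0.955 and 1.77 CPM outside TCM and to 1.64 and 1.89 CPM in TCM. Of the 6, only Pmel was tested, with a log2 FC of −0.36 in TCM vs CCM that was not called. Tyr was at 0 in all libraries. Tyrp1 was at 0.631 and 0.327 CPM and Dct at 0.105 and 0.109 CPM in TCM, both at 0 elsewhere. Sox10 had 1 count, in TCM replicate 2, and Mlana had 1 count each in TCM replicate 1 and LA replicate 2. Whether melanoma RNA contributed to the TCM libraries was not tested. TCM replicates differed from each other more than other pairs, with a chi-square per degree of freedom over the tested genes of 19.8, against 3.28 to 7.32 in the other conditions. Its part in the values of Bsg and Slc16a3 was not tested beyond the fits without each library.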

How the data were processed

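Poly(A) RNA of an FRC line was sequenced in 8 libraries. Per the labels and methods, the authors made directional libraries, aligned reads to GRCm38 with STAR 2.7.0a, quantified them per gene with featureCounts (Subread 2.0.1) and used DESeq2 1.32.0 for their own tests. The deposited values are whole-number counts per gene without normalization, and a second deposited table holds the same counts for 12137 genes. The 8 genes and the lists were chosen with earlier results of these data known.

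Genes that reached 10 counts or more in 3 or more libraries were fitted with edgeR 4.0.16 (quasi-likelihood, TMM factors 0.938 to 1.04, all 8 libraries, 1 mean per condition) in R 4.3.3, and DESeq2 1.42.0 was an alternative. The fit was tested on simulated data. CPM used TMM-scaled totals. Lengths are merged exons of GENCODE M21 on GRCm38, which is not the annotation of the counts (Ensembl version not used here). Besides the 8 genes, the text names the 3 called genes of smallest adjusted P value per list, further carriers, dehydrogenase relatives and Nptn that were tested, and 3 most alike genes for each called gene; Pcx, Gpt2 and Hcar1 were named after their values were seen. The 4 pseudogenes of Ldha and Ldhb in the table had at most 3 counts in a library, and reads shared with them cannot be assigned with certainty. Alternatives were other scaling, filters, thresholds, DESeq2, a replicate block and leaving out each library.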

Additional observations from a re-analysis of the deposited data

How the results depend on the processing

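Of 659 refitted fold changes of single genes, 612 kept their direction and their side of the threshold, 24 fell below it, 9 passed it and 14 changed sign, all of the last for effects that were not called. In TCM vs CCM 5 genes were called without the filter on low counts, with Emb added as lower, beside 2696 of all 23234 genes fitted. At a fold threshold of 0.68 the number was 3, where Bsg was lost, beside 1331 of all 12137 genes. With glmTreat it was 2, beside 979, and the main fit called 2314 of all genes. Calls were also lost in fits without a CCM library, which leave a single library in that condition. In LA vs vehicle the number was 1 without the filter on low counts, beside 656 of all 23234 genes. There Ldhb was also called without TCM replicate 1 or 2. For the interaction the number was 1 without TMM factors and 1 with glmTreat, beside 1410 and 625 of all 12137 genes. Over left-out libraries the interaction call of Bsg was lost in some fits and that of Ldha in none. In TCM vs vehicle the calls of Slc16a1 and Bsg changed over left-out libraries. In TCM vs LA the number was 1 at a fold threshold of 0.68 and 0 with glmTreat, beside 1126 and 742 of all genes. In CCM vs vehicle it was 1 (Emb) with only the compared libraries fitted, beside 679 of all genes. In LA vs CCM it was 1 (Emb) without the filter, beside 410 of all 23234 genes. Without division by length the Ldha share differed by 0.402 percentage points in TCM minus CCM and by −0.540 in LA minus vehicle.

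Sign changes without TMM factors were −0.064 for Slc16a1 in the interaction, −0.018 for Bsg in LA vs CCM and −0.091 for Emb in TCM vs vehicle. Leaving out single libraries also turned the sign of some effects, which then ranged, on the log2 scale, from −0.024 to 0.035 for Bsg in LA vs CCM, from −0.22 to 0.29 for Emb in TCM vs vehicle, from −0.73 to 0.087 for Emb in LA vs vehicle, from −0.069 to 0.75 for Emb in TCM vs LA, from −0.60 to 0.21 for Emb in the interaction, from −0.058 to 0.78 for Slc16a3 in LA vs CCM and from −0.00029 to 0.94 for Slc16a3 in the interaction. The causes were not tested.

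With the replicate number as a block (replicate block), 4, 0 and 2 genes were called in TCM vs CCM, LA vs vehicle and the interaction, as without it, and 2367 of all tested genes in TCM vs CCM against 2314. Deviations of same-numbered libraries correlated positively in the 3 pairs of conditions outside CCM (LA and vehicle 0.353, TCM and vehicle 0.112, TCM and LA 0.106) and negatively in those with CCM (vehicle −0.041, LA −0.081, TCM −0.242), so the numbers were not taken to pair the libraries across all conditions. With the CCM numbers crossed, a pairing added after seeing the data, 4, 1 (Ldhb) and 2 genes were called, and 2675 of all genes in TCM vs CCM and 596 against 310 in LA vs vehicle. Slc16a7, Ldhd and, at 9 counts per vehicle library, Slc16a3 are limited by depth.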
